A study of Mus musculus with 3 samples.

Results

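miR-451a, miR-144 and miR-486 are microRNAs (miRNAs, small RNAs that guide Argonaute proteins to messenger RNAs) known above all from red blood cells and their precursors. They were followed here in mouse liver through 4 mature arms, miR-451a-5p, miR-144-3p, miR-144-5p and miR-486-5p, of 403 miRNA entries counted in the series. The members were chosen by precursor: every read assigned to Mir451a, to Mir144, or to Mir486 and Mir3107, which give the same mature arms and whose reads cannot be told apart. The rare miR-486-3p is given beside them for the arm ratio only.

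C57BL/6 mice, which are inbred, gave the livers, and 4 weeks had passed since injection of a self-complementary adeno-associated virus vector of serotype 9. The vector encoded a Tough Decoy (TuD) against miR-122 in the first group and a TuD against let-7 in the second, and carried no decoy in the mock group. A TuD is a hairpin RNA, made from the vector, whose exposed strands pair with the miRNA it targets. All 3 groups received the vector and had 1 library each. The number, age and sex of the animals, and whether livers were pooled or perfused to remove blood, are not stated in the labels. Differences between the groups therefore have no replicate check. The series was made to examine what decoys do to the stability and integrity of miRNAs, and the red-cell miRNAs are targets of neither decoy.

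Mir144 and Mir451a are transcribed together in erythroid cells under the control of GATA1, the main transcription factor of that lineage. Pre-miR-451 has a stem too short for Dicer: AGO2, the slicing Argonaute, binds it, cuts its 3′ arm, and the long intermediate is then shortened from its 3′ end by exonuclease trimming, so that 1 mature miRNA starts at a fixed 5′ end and ends at many positions. miR-144 is cut by Dicer in the usual way, which leaves a guide and a passenger arm. miR-486 lies within Ank1, the gene of the erythroid membrane protein ankyrin, and is also abundant in muscle. The fetal liver forms red cells, and the adult organ holds much blood.

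Mir144 lies at chr11:78073005-78073070 and Mir451a at chr11:78073170-78073241 of mouse build GRCm38, both on the plus strand, 99 nt apart and within no other annotated gene. Mir451b is annotated on the opposite strand of Mir451a. Mir486 lies at chr8:23142555-23142682 on the plus strand and Mir3107 at chr8:23142573-23142662 on the minus strand, both inside an intron of Ank1, which is transcribed from the plus strand. The mature arms and hairpins of the chromosome 11 pair, from RefSeq on GRCm38.p6, are shown because the length and tail results refer to their bases. Capitals mark the seed, bases 2 to 8 counted from the 5′ end, in the mature arms, and the mature arms in the hairpins.
miR-451a-5p: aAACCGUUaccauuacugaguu
miR-144-3p: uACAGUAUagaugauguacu
miR-144-5p: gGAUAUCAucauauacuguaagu
miR-101a-3p: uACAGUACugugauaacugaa
Mir451a: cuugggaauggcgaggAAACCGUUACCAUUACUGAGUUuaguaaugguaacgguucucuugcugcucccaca
Mir144: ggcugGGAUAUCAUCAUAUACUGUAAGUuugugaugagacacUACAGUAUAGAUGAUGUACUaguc
The bases after the mature sequence in the Mir451a hairpin are those that the longer reads carry. Among the 1738 mature mouse miRNAs of the RefSeq table, the full seed of miR-451a-5p, of miR-144-5p and of miR-144-3p was found in no other miRNA. Bases 2 to 7 of miR-144-3p were shared with 1 other, miR-101a-3p, shown above. miR-101b-3p does not share them by its RefSeq 5′ end. Its most frequent read start in these libraries, however, gave the same first bases as miR-101a-3p.

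The libraries held 3681585 reads in TuD-miR-122, 2066892 in TuD-let-7 and 3450317 in mock, and 72.0% of reads in TuD-miR-122, 73.1% in TuD-let-7 and 78.5% in mock were assigned to miRNAs. Levels are in RPM, the reads in each 1000000 of the miRNA reads that came from neither the miR-122 nor the let-7 loci, 1445480 in TuD-miR-122, 483554 in TuD-let-7 and 1369862 in mock. TuD-let-7 was thus the shallowest library for these miRNAs. Intervals are at 95% and cover counting error only, since no molecular identifiers mark PCR copies. Hepatocyte miRNAs, 5 of 5 listed members detected, summed to 153115 RPM in TuD-miR-122, 211215 in TuD-let-7 and 176754 in mock. Their ratios to mock ran from 0.508 to 0.940 in TuD-miR-122 and from 0.178 to 1.35 in TuD-let-7. Detection does not check the tissue label. Of 383 non-target entries, 381 were detected in TuD-miR-122, 374 in TuD-let-7 and 380 in mock, and so were all 5 listed skeletal muscle miRNAs. Markers of other tissues set single libraries apart. Skeletal muscle miRNAs summed to 999 RPM in TuD-miR-122, 242 in TuD-let-7 and 10601 in mock, and 4 pancreas miRNAs, listed after results were known, to 1620 RPM in TuD-miR-122, 163 in TuD-let-7 and 120 in mock. In bulk liver, fewer cells of a type and less RNA per cell cannot be told apart.

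All 4 arms were higher in TuD-miR-122 than in mock, and by like amounts, 1.39-fold to 1.499-fold. In TuD-let-7 the arms of miR-144 stood below mock, at 0.690 and 0.667 of it, while miR-451a-5p and miR-486-5p stood near mock, at 0.926 and 0.908. The 4 arms and miR-486-3p together took 4.90% of non-target miRNA reads in TuD-miR-122, 3.13% in TuD-let-7 and 3.49% in mock.

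miR-451a-5p was the most abundant arm, and by rank it was among the most abundant miRNAs of these libraries apart from the decoy targets. It had 59364 reads (41069 RPM, 40739 to 41400) in TuD-miR-122, 13244 reads (27389 RPM, 26924 to 27859) in TuD-let-7 and 40498 reads (29564 RPM, 29276 to 29853) in mock. It ranked 5 of 381 detected non-target miRNAs in TuD-miR-122, 9 of 374 in TuD-let-7 and 7 of 380 in mock. The TuD-miR-122 library was thus high and the other two lay close together, with intervals that did not overlap. Relative to mock it was at 1.39 (1.37 to 1.41) in TuD-miR-122 and 0.926 (0.908 to 0.945) in TuD-let-7.

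miR-144-3p, the arm of Mir144 that is the guide, had 8840 reads (6116 RPM, 5989 to 6244) in TuD-miR-122, 1362 reads (2817 RPM, 2669 to 2970) in TuD-let-7 and 5588 reads (4079 RPM, 3973 to 4188) in mock. Here TuD-miR-122 was high and TuD-let-7 low. The ratio to mock was 1.499 (1.45 to 1.55) in TuD-miR-122 and 0.690 (0.650 to 0.733) in TuD-let-7. miR-144-5p, the other arm, had 231 reads (160 RPM, 140 to 182) in TuD-miR-122, 36 reads (74.4 RPM, 52.1 to 103) in TuD-let-7 and 153 reads (112 RPM, 94.7 to 131) in mock. Its order was that of the guide arm, with a ratio to mock of 1.43 (1.16 to 1.77) in TuD-miR-122 and 0.667 (0.450 to 0.964) in TuD-let-7, although the 36 reads leave the second value wide.

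miR-486-5p had 2274 reads (1573 RPM, 1509 to 1639) in TuD-miR-122, 471 reads (974 RPM, 888 to 1066) in TuD-let-7 and 1469 reads (1072 RPM, 1018 to 1129) in mock. TuD-miR-122 was again the highest, and the intervals of TuD-let-7 and mock overlapped. The ratio to mock was 1.47 (1.37 to 1.57) in TuD-miR-122 and 0.908 (0.817 to 1.008) in TuD-let-7, the only member ratio whose interval included 1. miR-486-5p is also a muscle miRNA, and the muscle list moved the other way in TuD-miR-122: its 4 members with enough reads had ratios to mock of 0.0778 to 0.156 in TuD-miR-122 and 0.0160 to 0.0291 in TuD-let-7. The part of muscle RNA in the miR-486-5p level was not tested.

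**Figure D1:**
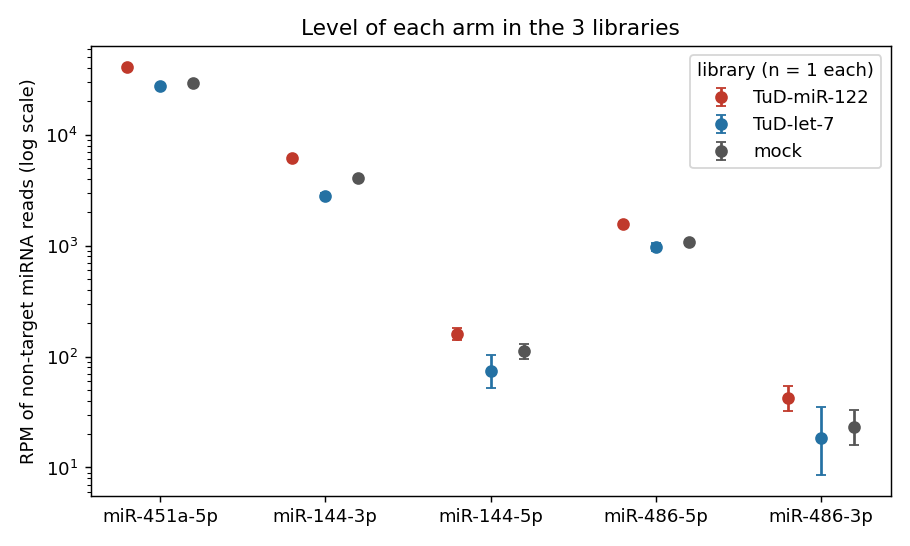
Level of each arm in RPM of non-target miRNA reads (log scale) in the TuD-miR-122, TuD-let-7 and mock libraries, 1 library each, with exact Poisson 95% intervals as bars. For every arm the TuD-miR-122 point is the highest, and for both arms of miR-144 the TuD-let-7 point is the lowest.

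A miRNA was called changed between 2 libraries when their summed reads reached 100 and its interval lay wholly above 2-fold or below 0.5-fold. By that rule 0 of 4 members were called in TuD-miR-122 against mock, where 18.5% of the 227 non-target miRNAs were called, 13.7% higher and 4.85% lower. Likewise 0 of 4 were called in TuD-let-7 against mock, where 7.77% of 193 were called, 3.63% higher and 4.15% lower. The members' median ratio to mock was 1.45 in TuD-miR-122 but 0.799 in TuD-let-7, against a median over all non-target miRNAs of 0.985 in each decoy library. In TuD-miR-122, 37 to 44 of the 227 miRNAs had a higher ratio than a given member, so shifts of this size were not rare. In TuD-let-7, 152 of 193 miRNAs had a higher ratio than miR-144-3p, against 110 with a higher ratio than miR-451a-5p. These comparisons share the mock library.

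The decoy libraries can be set against each other without mock. Between TuD-miR-122 and TuD-let-7 the ratio was 1.499 (1.47 to 1.53) for miR-451a-5p, 2.17 (2.05 to 2.30) for miR-144-3p, 2.15 (1.51 to 3.14) for miR-144-5p and 1.62 (1.46 to 1.79) for miR-486-5p. By the 2-fold rule 1 of 4 members, miR-144-3p, was called higher, where 20.2% of 213 non-target miRNAs were called, 17.4% higher and 2.82% lower. Scaled to all reads, all 4 members were called, with ratios of 2.52 for miR-451a-5p, 3.64 for miR-144-3p, 3.60 for miR-144-5p and 2.71 for miR-486-5p, and 65 of all non-target miRNAs were called in place of 43. The median of all 213 was 1.07 on the scale of non-target miRNA reads. The scale also moved the ratios to mock of TuD-let-7: relative to all reads, the TuD-let-7 ratios to mock are multiplied by 0.589 (-0.76 on the log2 scale), which gives 0.546 for miR-451a-5p, 0.407 for miR-144-3p, 0.393 for miR-144-5p and 0.535 for miR-486-5p. On that scale the interval of miR-144-3p, 0.383 to 0.432, lay wholly below 0.5.

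**Figure D2:**
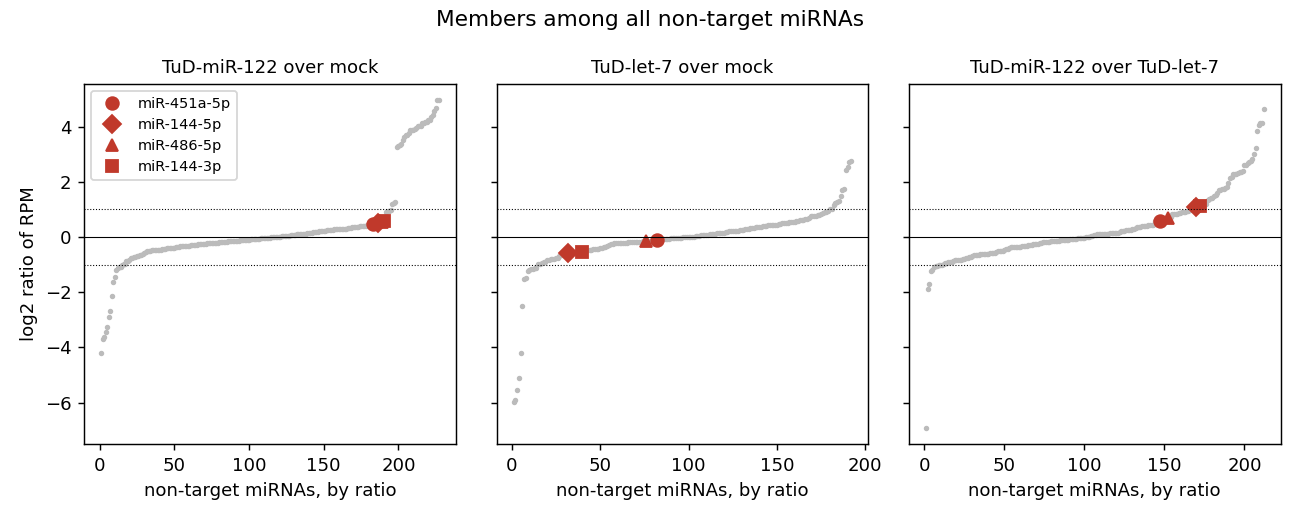
The log2 ratio of RPM for each non-target miRNA of 100 reads or more over both libraries, sorted from lowest to highest along the x axis, for TuD-miR-122 over mock, TuD-let-7 over mock and TuD-miR-122 over TuD-let-7. Red symbols are the 4 arms, and dotted lines mark 2-fold. The members lie together at 1.39-fold to 1.499-fold in the left panel, and the miR-144 arms lie left of miR-451a-5p and miR-486-5p in the middle panel.

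Within a library, the ratio of one member to another needs no scale. Reads of miR-451a-5p per read of miR-486-5p were 26.1 (25.03 to 27.2) in TuD-miR-122, 28.1 (25.6 to 30.9) in TuD-let-7 and 27.6 (26.2 to 29.1) in mock, so miRNAs from different chromosomes kept nearly one proportion. The neighbours Mir451a and Mir144 did not keep theirs as closely: miR-451a-5p had 6.72 reads (6.57 to 6.87) per read of miR-144-3p in TuD-miR-122, 9.72 (9.20 to 10.3) in TuD-let-7 and 7.25 (7.05 to 7.45) in mock. miR-144-3p per read of miR-486-5p was 3.89 (3.71 to 4.07) in TuD-miR-122, 2.89 (2.60 to 3.22) in TuD-let-7 and 3.80 (3.59 to 4.03) in mock. In each ratio with miR-144-3p, TuD-let-7 was the library apart.

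Of 121 non-target miRNAs of 1000 reads or more over the 3 libraries, the miRNA nearest to miR-451a-5p by the distance of its pair of log2 ratios to mock was miR-486-5p, at 0.08. miR-872-5p at 0.10, miR-25-3p at 0.14, miR-335-5p at 0.16 and miR-137-3p at 0.18 followed, and miR-144-3p took place 19. The nearest to miR-486-5p was miR-451a-5p at 0.08, and the next 4 were those same miRNAs. The likeness rests on 3 libraries, and all these ratios share mock.

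Other genes of red cells were looked at in the same libraries. Of 10 miRNAs that are abundant in red cells but widely expressed elsewhere, 9 had an entry. In TuD-miR-122, 5 had a ratio to mock above 1 and 4 below, with a median of 1.05 and a range of 0.636 to 1.30. In TuD-let-7, 2 were above and 7 below, with a median of 0.913 and a range of 0.504 to 2.01. By the 2-fold rule 0 of the 9 were called against mock, where all non-target miRNAs had 18.5% called for TuD-miR-122 and 7.77% for TuD-let-7. Between TuD-miR-122 and TuD-let-7, 2 of the 9, miR-16-5p and miR-15b-5p, were called higher, beside 17.4% of all. miR-16-5p, the most abundant of them, stood at 23552 RPM in TuD-miR-122, 11351 in TuD-let-7 and 22534 in mock. miR-25-3p had a ratio to mock of 1.30 (1.21 to 1.39) in TuD-miR-122 and 0.991 (0.897 to 1.09) in TuD-let-7, and miR-191-5p one of 0.781 (0.751 to 0.813) in TuD-miR-122 and 0.871 (0.824 to 0.920) in TuD-let-7. miR-92a-3p and miR-93-5p, both more abundant in mock than miR-25-3p, had ratios to mock of 0.636 and 0.796 in TuD-miR-122. In TuD-let-7 these were 0.685 and 0.913. The list as a whole was therefore near the median of all miRNAs where the 4 members stood above it.

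Markers of other blood and vessel cells were set beside the members. Myeloid and lymphoid miRNAs, all 7 of them detected, summed to 13950 RPM in TuD-miR-122, 12050 in TuD-let-7 and 14888 in mock, with a median ratio to mock of 0.904 for TuD-miR-122 and 0.716 for TuD-let-7. miR-142-3p, known from blood cells in general, was at 6591 RPM in TuD-miR-122, 5499 in TuD-let-7 and 7289 in mock. The other arm of its hairpin, miR-142-5p, had a ratio to mock of 1.29 (1.21 to 1.37) in TuD-miR-122 and 0.716 (0.642 to 0.798) in TuD-let-7. The pair of endothelial miR-126a arms summed to 28914 RPM in TuD-miR-122, 22151 in TuD-let-7 and 23883 in mock. In TuD-let-7 these arms went opposite ways, with ratios to mock of 1.08 (1.05 to 1.11) for miR-126a-3p and 0.596 (0.569 to 0.624) for miR-126a-5p. In TuD-miR-122 both were above 1, at 1.28 (1.26 to 1.30) and 1.06 (1.03 to 1.09). Of the 7 white-cell miRNAs, 5 had a ratio to mock below 1 in TuD-miR-122 and 2, miR-142-5p and miR-150-5p, above it. The 4 members were all above 1 there. The part of blood content in the members' ratios was not tested.

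Fragments of haemoglobin messenger RNA, the most abundant transcript of red cells, gave a red-cell measure that does not use the miRNAs. Reads of at least 18 nt that matched haemoglobin alpha or beta exactly numbered 17 in TuD-miR-122, 1 in TuD-let-7 and 8 in mock. The ratio to mock was 2.01 (0.824 to 5.39) in TuD-miR-122 and 0.354 (0.00798 to 2.64) in TuD-let-7, so no difference was detectable at these counts. Alas2, the erythroid enzyme of haem synthesis, had 4 reads in TuD-miR-122, 0 in TuD-let-7 and 2 in mock, and Slc4a1, the red-cell anion exchanger, had 1 read in mock only. Where the count is 0, up to 3 reads are allowed, or 2.08 RPM in TuD-miR-122, 6.20 in TuD-let-7 and 2.19 in mock. Fragments of 4 hepatocyte transcripts (Alb, Apoa1, Apoa2 and Ttr, chosen after results were known) were also higher in TuD-miR-122, with 1692 reads against 275 in TuD-let-7 and 811 in mock, a ratio to mock of 1.98 (1.82 to 2.15) in TuD-miR-122 and 0.961 (0.835 to 1.10) in TuD-let-7.

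The reads of miR-451a-5p formed a ladder of lengths with 1 fixed 5′ end. The steps are shown as deposited, with bases beyond the 22 nt of the RefSeq form in capitals. All of those shown occurred in every library and follow the hairpin base for base.
21 nt: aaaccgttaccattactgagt
22 nt: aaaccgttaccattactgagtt
23 nt: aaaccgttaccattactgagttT
24 nt: aaaccgttaccattactgagttTA
25 nt: aaaccgttaccattactgagttTAG
26 nt: aaaccgttaccattactgagttTAGT
27 nt: aaaccgttaccattactgagttTAGTA
29 nt: aaaccgttaccattactgagttTAGTAAT
Reads starting at the main 5′ end made up 99.2% (99.1 to 99.3) of untailed reads on that arm in TuD-miR-122, 99.4% (99.3 to 99.5) in TuD-let-7 and 99.4% (99.4 to 99.5) in mock. Reads beginning 1 or 2 nt upstream numbered 0 in each library, which allows up to 3 reads. Reads from the opposite arm of the Mir451a hairpin numbered 9 in TuD-miR-122 and 2 in mock.

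The 3′ end was spread over many lengths and peaked at 23 nt in each library. Reads matching the hairpin for 22 nt numbered 19243 in TuD-miR-122, 4410 in TuD-let-7 and 12234 in mock, and those matching for 23 nt numbered 29824 in TuD-miR-122, 7130 in TuD-let-7 and 22702 in mock. Together these forms made up 82.7% (82.3 to 83.0) of miR-451a-5p reads in TuD-miR-122, 87.1% (86.6 to 87.7) in TuD-let-7 and 86.3% (85.9 to 86.6) in mock. The 23-nt form per 22-nt read was 1.55 (1.52 to 1.58) in TuD-miR-122, 1.62 (1.56 to 1.68) in TuD-let-7 and 1.86 (1.82 to 1.90) in mock, so mock had the largest share of the longer of the main forms.

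Longer forms fell off in steps. At 24, 25 and 26 nt there were 2485, 2192 and 1175 reads in TuD-miR-122, against 575, 350 and 212 in TuD-let-7 and 1796, 1310 and 658 in mock. The 27-nt form had 158 reads in TuD-miR-122, 19 in TuD-let-7 and 79 in mock, which is 0.134 (0.113 to 0.159) of the 26-nt form in TuD-miR-122, 0.0896 (0.0529 to 0.143) in TuD-let-7 and 0.120 (0.0938 to 0.152) in mock. The drop from 26 to 27 nt was thus much steeper in every library than the drop from 25 to 26 nt, where the ratio was 0.536 (0.499 to 0.576) in TuD-miR-122, 0.606 (0.508 to 0.720) in TuD-let-7 and 0.502 (0.457 to 0.552) in mock. At 29 nt there were 13 reads in TuD-miR-122, 1 in TuD-let-7 and 13 in mock, and at 30 nt 0 in each, which allows a share of up to 0.00505% in TuD-miR-122, 0.0227% in TuD-let-7 and 0.00741% in mock. No deposited insert was longer than 30 nt and RNA of 18 to 30 nt was cut from the gel, so longer intermediates are outside the measurement.

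Forms of 24 nt or more, called long here, made up 10.2% (9.92 to 10.4) of miR-451a-5p reads in TuD-miR-122, 8.74% (8.26 to 9.23) in TuD-let-7 and 9.52% (9.24 to 9.81) in mock. The libraries differed by more than counting error, but the range was small. A 23-nt form with an added A cannot be told from the 24-nt form, because the hairpin has A at that base. Among the long forms, the step from 24 to 25 nt had intervals that did not overlap between TuD-miR-122 and either other library, with 0.882 (0.832 to 0.935) reads of 25 nt per read of 24 nt in TuD-miR-122, 0.609 (0.531 to 0.696) in TuD-let-7 and 0.729 (0.679 to 0.784) in mock. Measured as RPM, the 23-nt form had a ratio to mock of 1.24 (1.22 to 1.27) in TuD-miR-122, the 22-nt form one of 1.49 (1.46 to 1.52) and the 26-nt form one of 1.69 (1.54 to 1.86). In TuD-let-7 the 22-nt form had a ratio of 1.02 (0.986 to 1.06) and the 23-nt form 0.890 (0.866 to 0.914).

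**Figure D3:**
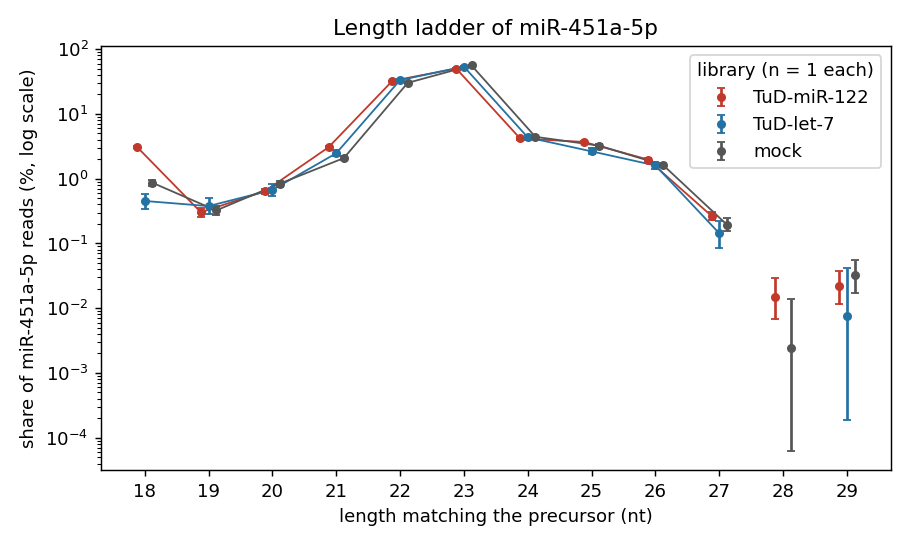
Share of miR-451a-5p reads (log scale) by the length that matches the hairpin, from 18 to 29 nt, in the TuD-miR-122, TuD-let-7 and mock libraries, with exact binomial 95% intervals; lengths with 0 reads are not drawn. The peak is at 22 and 23 nt in each library, and a shoulder runs to 26 nt. The share at 18 nt is highest in TuD-miR-122. In each library all reads at that point are longer inserts with further bases, in TuD-miR-122 mostly those with the change A19C.

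Long reads also occur for miRNAs whose usual form is long. Over the non-target miRNAs of 1000 reads or more in a library, the median share of reads matching for 24 nt or more was 0.0907% in TuD-miR-122 (82 miRNAs), 0.152% in TuD-let-7 (49 miRNAs) and 0.0804% in mock (80 miRNAs). A share higher than that of miR-451a-5p was found in 10 of the 82 in TuD-miR-122, 6 of the 49 in TuD-let-7 and 9 of the 80 in mock. miR-7-5p was the highest in each library, at 44.3% in TuD-miR-122, 47.9% in TuD-let-7 and 45.2% in mock, and 4 miRNAs of the miR-30 family were also above. The long reads of miR-7-5p rarely went beyond 1 nt past its most frequent length: reads 2 nt or more past it made up 0.333% in TuD-miR-122, 0.355% in TuD-let-7 and 0.354% in mock. For miR-451a-5p such reads made up 5.98% in TuD-miR-122, 4.39% in TuD-let-7 and 5.09% in mock. By this measure 9 of 82 miRNAs in TuD-miR-122, 5 of 49 in TuD-let-7 and 11 of 80 in mock still stood above miR-451a-5p, such as miR-191-5p at 17.4% in TuD-miR-122, 16.5% in TuD-let-7 and 15.6% in mock. A long 3′ range was thus not particular to miR-451a-5p in these libraries. miR-144-3p had 0 reads of 24 nt or more, which allows a share of up to 0.0339% in TuD-miR-122, 0.220% in TuD-let-7 and 0.0537% in mock. miR-486-5p had 4 of 2274 reads in TuD-miR-122, 0 of 471 in TuD-let-7, which allows up to 0.637%, and 2 of 1469 in mock. miR-144-5p, whose RefSeq form is 23 nt long, had 16 of 231 in TuD-miR-122, 0 of 36 in TuD-let-7, which allows up to 8.33%, and 12 of 153 in mock.

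Reads of miR-144-3p ended mainly at 20 nt, with 80.2% in TuD-miR-122, 83.8% in TuD-let-7 and 83.3% in mock. The form shorter by 1 nt made up 11.9% (11.3 to 12.6) in TuD-miR-122, 4.85% (3.77 to 6.12) in TuD-let-7 and 8.95% (8.21 to 9.73) in mock. miR-486-5p reads matched for 22 nt in 63.9% (61.9 to 65.9) in TuD-miR-122, 64.3% (59.8 to 68.7) in TuD-let-7 and 69.6% (67.2 to 72.0) in mock, and for 21 nt in 28.1% (26.3 to 30.0) in TuD-miR-122, 23.4% (19.6 to 27.4) in TuD-let-7 and 20.3% (18.3 to 22.4) in mock. For both miRNAs the shorter of the main forms was the most frequent in TuD-miR-122.

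The proportion of the Mir144 arms was alike in the 3 libraries. The 3p arm had 38.3 reads (33.6 to 43.8) per 5p read in TuD-miR-122, 37.8 (27.2 to 54.3) in TuD-let-7 and 36.5 (31.1 to 43.2) in mock. For Mir486, the 5p arm had 37.3 reads (28.9 to 48.9) per 3p read in TuD-miR-122, 52.3 (27.3 to 115) in TuD-let-7 and 45.9 (32.4 to 67.4) in mock, from 61 reads of miR-486-3p in TuD-miR-122, 9 in TuD-let-7 and 32 in mock. The intervals overlapped throughout, and at this depth a difference in arm use of less than about the width of these intervals was not detectable. The 5′ ends of Mir144 were less fixed than that of Mir451a. For miR-144-5p, 15.2% (11.1 to 20.1) of untailed reads in TuD-miR-122, 6.06% (0.743 to 20.2) in TuD-let-7 and 11.3% (6.95 to 17.1) in mock began 2 nt upstream of the main start, which moves the seed. For miR-144-3p a start 1 nt upstream made up 2.72% (2.39 to 3.08) in TuD-miR-122, 4.25% (3.23 to 5.48) in TuD-let-7 and 2.28% (1.90 to 2.71) in mock.

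The share of reads with a counted 3′ tail, bases added beyond the match to the hairpin, was highest for miR-486-5p among the members. An added base equal to the next hairpin base reads as a match and is not counted. That next base differs between the members, so their counted shares are not directly comparable. Tails are mostly added by nucleotidyl transferases that attach uridine (read as T) or adenine. Of miR-486-5p reads, 40.4% (38.4 to 42.5) in TuD-miR-122, 42.7% (38.2 to 47.3) in TuD-let-7 and 49.1% (46.5 to 51.7) in mock were tailed. The median of this share over non-target miRNAs of 1000 reads or more was 22.4% in TuD-miR-122, 31.9% in TuD-let-7 and 25.4% in mock. Mock was the highest of the 3 libraries, and miR-486-5p lay above the median of all miRNAs in each.

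Tails of T were less frequent on miR-486-5p in TuD-miR-122 than in mock. The share with tails of A was higher in TuD-miR-122, but its interval overlapped that of mock at the edge. Tails made only of T were found on 23.5% (21.8 to 25.3) of miR-486-5p reads in TuD-miR-122, 22.1% (18.4 to 26.1) in TuD-let-7 and 31.8% (29.4 to 34.2) in mock. Tails made only of A were found on 10.9% (9.65 to 12.3) in TuD-miR-122, 10.2% (7.61 to 13.3) in TuD-let-7 and 8.17% (6.82 to 9.69) in mock. Between TuD-miR-122 and mock this is a difference of -8.26 percentage points for T and 2.74 points for A. For the 74 non-target miRNAs of 1000 reads or more in each of these libraries, the median difference was 0.195 points for T and -0.221 points for A, only 1 had a lower difference for T and none a higher one for A. The intervals of the A tails overlapped between mock and each of the decoy libraries. Most of these tails were 1 nt long, with a single T on 20.7% of reads in TuD-miR-122, 18.0% in TuD-let-7 and 26.9% in mock.

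**Figure D4:**
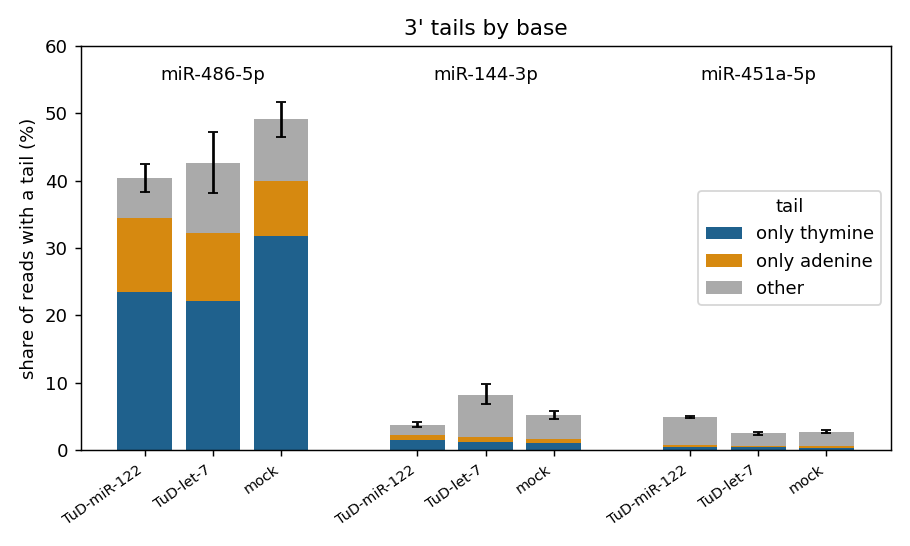
Share of reads with a 3′ tail, stacked by tails of only thymine, of only adenine and of other bases, for miR-486-5p, miR-144-3p and miR-451a-5p in the TuD-miR-122, TuD-let-7 and mock libraries, with the exact binomial 95% interval of the total. miR-486-5p is tailed on 40.4% of reads in TuD-miR-122, 42.7% in TuD-let-7 and 49.1% in mock, and the other arms on under 10%.

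miR-451a-5p and miR-144-3p were among the miRNAs with the lowest counted share of tailed reads. Of miR-451a-5p reads, 4.95% (4.78 to 5.13) in TuD-miR-122, 2.48% (2.22 to 2.76) in TuD-let-7 and 2.76% (2.60 to 2.92) in mock were tailed. With 1 mismatch allowed these became 2.42% (2.30 to 2.54) in TuD-miR-122, 2.59% in TuD-let-7 and 2.47% (2.33 to 2.62) in mock, with overlapping intervals. With no mismatch allowed it was the lowest of 49 miRNAs in TuD-let-7 and of 80 in mock, and the second lowest of 82 in TuD-miR-122, where miR-144-3p was the lowest. Of miR-144-3p reads, 3.79% (3.40 to 4.21) in TuD-miR-122, 8.22% (6.82 to 9.81) in TuD-let-7 and 5.14% (4.57 to 5.75) in mock were tailed. With tails of at most 2 nt, these became 2.9995% in TuD-miR-122, 3.18% (2.29 to 4.28) in TuD-let-7 and 2.73% in mock, with overlapping intervals. The hairpin carries A after the main form of miR-144-3p, of 20 nt. An A added there reads as a match, so the A-tail share of miR-144-3p is a lower limit. Tails of only T or only A made up 0.711% of miR-451a-5p reads in TuD-miR-122, 0.596% in TuD-let-7 and 0.595% in mock. The hairpin carries T at bases 21 to 23 of miR-451a-5p and A at the base after them. A T added after 20, 21 or 22 nt, or an A added after 23 nt, therefore reads as a match. The T-tail and A-tail shares of this miRNA are both lower limits. For miR-144-5p 14 of 231 reads were tailed in TuD-miR-122, 5 of 36 in TuD-let-7 and 12 of 153 in mock, and tails of only T or only A numbered 0 in each, which allows up to 3 reads. The hairpin carries T after 22 and after 23 nt of this arm, where most of its reads end. A T added there reads as a match, so the count of T tails cannot show whether T was added at these ends.

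Most of the other tails of miR-451a-5p in TuD-miR-122 were a single-base difference inside the read. Position 1 is the 5′ end of the miRNA, and the hairpin's base is given first. Of the 2941 tailed reads in TuD-miR-122, 1837 matched for exactly 18 nt. Inserts of 22 and 23 nt that carry the change A19C and otherwise follow the hairpin made up 539 and 1132 of them. The 23-nt form is shown with that base in capitals.
23 nt, A19C: aaaccgttaccattactgCgttt
The change was found on 3.23% (3.08 to 3.37) of reads covering the position in TuD-miR-122, 0.176% (0.111 to 0.264) in TuD-let-7 and 0.635% (0.559 to 0.717) in mock. It was present at each insert length from 21 to 27 nt in TuD-miR-122, on 1.59% to 3.67% of reads. The same change at the same position was measured in other miRNAs with A there: their median was 1.92% in TuD-miR-122 (13 miRNAs), 0.159% in TuD-let-7 (8 miRNAs) and 0.455% in mock (10 miRNAs). The share thus moved with the library and read position in other miRNAs too, and miR-451a-5p lay within their range in each library, with 3 of 13 above it in TuD-miR-122, 3 of 8 in TuD-let-7 and 4 of 10 in mock.

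In TuD-let-7 other positions stood out. In miR-144-3p, G10T was found on 0.164% (0.0920 to 0.271) of reads in TuD-miR-122, 11.96% (10.4 to 13.7) in TuD-let-7 and 0.961% (0.727 to 1.25) in mock. Other miRNAs with G at that position had a median of 0.231% in TuD-miR-122 (24 miRNAs), 8.35% in TuD-let-7 (15 miRNAs) and 0.872% in mock (22 miRNAs). miRNAs with the same first bases, such as miR-103-3p and miR-107-3p, were counted from the same reads here, so these miRNAs are not all separate. In TuD-let-7 only 1 of the 15 was above miR-144-3p, in a range of 5.65% to 11.99%. A18C was found on 0.314% (0.201 to 0.466) of miR-144-3p reads in TuD-miR-122, 4.61% (3.52 to 5.90) in TuD-let-7 and 2.02% (1.65 to 2.44) in mock, while other miRNAs with A there had a median of 0.321% in TuD-miR-122, 3.88% in TuD-let-7 and 1.38% in mock. In TuD-let-7, 0 of 13 others were above miR-144-3p, the highest being miR-26b-5p at 4.59%. Such reads are lost or counted as tailed when no mismatch is allowed. With 1 mismatch allowed, miR-451a-5p gained 7.07% of reads in TuD-miR-122, 15.5% in TuD-let-7 and 6.04% in mock, and miR-144-3p gained 5.92% in TuD-miR-122, 23.5% in TuD-let-7 and 6.69% in mock. All non-target miRNAs together gained 7.80% in TuD-miR-122, 22.96% in TuD-let-7 and 7.08% in mock. The ratio of miR-451a-5p in TuD-let-7 to mock was then 0.879 in place of 0.926, and that of miR-144-3p 0.696 in place of 0.690.

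**Figure D5:**
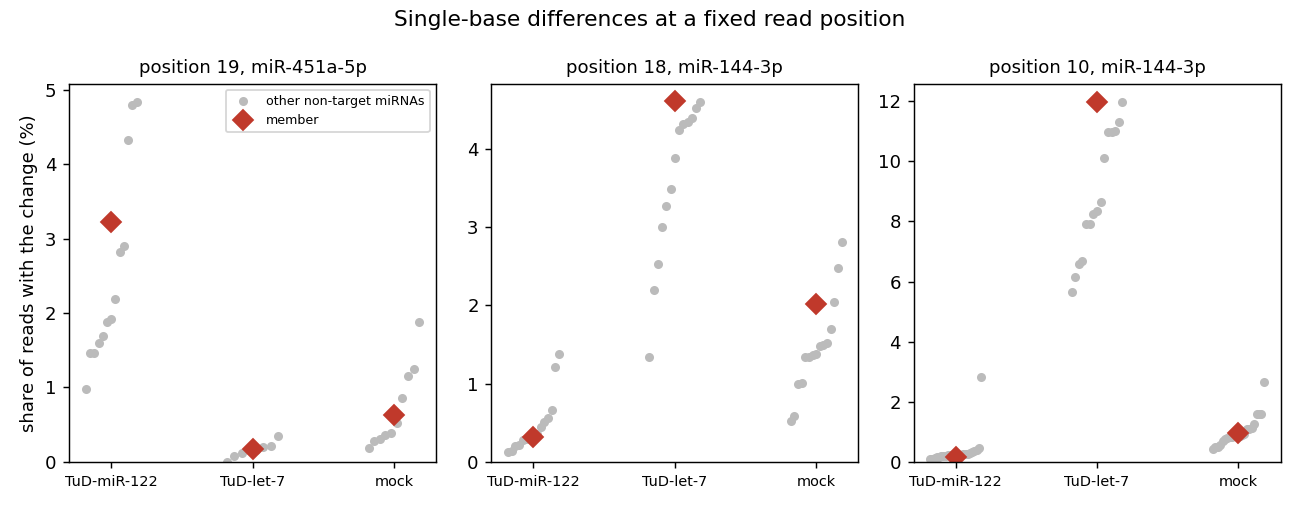
Share of reads with the single-base difference A19C in miR-451a-5p, A18C in miR-144-3p and G10T in miR-144-3p (red diamonds), and with the same change at the same position in other non-target miRNAs (grey points), in the TuD-miR-122, TuD-let-7 and mock libraries; y axes differ between panels. The grey points rise in the same library as the member: TuD-miR-122 at position 19 and TuD-let-7 at positions 10 and 18.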

How the data were processed

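The authors deposited 1 file per library (3 in all), in which each insert sequence stands with its raw read count, not normalised. Per the labels' protocols, total liver RNA was extracted and RNA of 18 to 30 nt was gel-purified. The labels name no adapter removal, filter, aligner or build. Inserts of 15 to 30 nt were present.

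Counts were assigned to the 1174 miRNA precursors of GENCODE mouse release M21 (GRCm38), which gives no mature ends. The 5′ end of an arm was the most frequent start over the 3 libraries (at least 10 reads), which gave 460 arms, or 403 entries once arms identical over 22 nt were merged. A read had to start there and match for at least 16 nt without mismatch, and up to 5 further bases were called a tail, base-call errors included. Reads fitting several entries stayed out (0.346% in TuD-miR-122, 0.327% in TuD-let-7, 0.329% in mock). miR-122, let-7 and miR-98 were left out of the scale. A single-base difference was counted when the next 2 bases matched again. Ratios carry exact conditional-binomial, shares exact Clopper-Pearson and levels exact Poisson intervals. With 1 library per group no test was made.

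The text names all arms of the precursors, list members by count with some of them as examples, and the 5 nearest miRNAs. The members and lists were chosen with earlier results of these data known. The counting code was tested on simulated data over 383 non-target miRNAs. For TuD-miR-122 against mock all 30 miRNAs changed 3-fold and all 30 changed 5-fold, up or down, were called. For TuD-let-7 against mock 29 of 30 and 30 of 30 were called. The changed miRNAs were drawn only from those well covered in mock, and the noise was counting error alone. The scale was taken from the miRNAs set as unchanged, which are not known in the libraries themselves. These counts check the code and give no rate of missed calls in the libraries. Of 323 unchanged miRNAs, 0 were called in each. In the libraries themselves, 227 of the 383 had enough summed reads for a call in TuD-miR-122 against mock. In TuD-let-7 against mock 193 did. The 323 were not limited to such miRNAs, so the count of 0 gives no rate of false calls. The symbol Ahsp, also listed, matched no transcript. The alternatives were other scales, read rules, tail rules, length limits and read minimums. Python 3.11, SciPy 1.17.1.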

Additional observations from a re-analysis of the deposited data

How the results depend on the processing

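Each member ratio stayed on its side of 1 under all 8 alternative scales and read rules. Of 264 alternative values, 185 stayed within the counting interval of the reported value (counts within 1.5 times) and 79 did not. The only called member ratio, that of miR-144-3p in TuD-miR-122 against TuD-let-7, kept its direction. The cause of the moves was not tested unless the setting itself gives it. Ratios of TuD-miR-122 to mock were 1.497 for miR-451a-5p, 1.62 for miR-144-3p and 1.58 for miR-486-5p scaled to all miRNA reads, 1.34 for miR-451a-5p and 1.45 for miR-144-3p with median-of-ratios factors, and 1.36 for miR-451a-5p with tails of at most 2 nt. Ratios of TuD-let-7 to mock, for miR-451a-5p, miR-144-3p, miR-144-5p and miR-486-5p, were 0.546, 0.407, 0.393 and 0.535 scaled to all reads and 0.586, 0.437, 0.421 and 0.574 scaled to all miRNA reads. That of miR-451a-5p was also 0.891 with median-of-ratios factors, 0.879 with 1 mismatch and 0.972 with tails of at most 2 nt. Ratios of TuD-miR-122 to TuD-let-7, in the same order of miRNAs, were 2.52, 3.64, 3.60 and 2.71 scaled to all reads and 2.56, 3.701, 3.66 and 2.75 scaled to all miRNA reads, and that of miR-451a-5p was 1.59 with 1 mismatch and 1.40 with tails of at most 2 nt. Members past 2-fold became 1 in TuD-let-7 against mock and 4 in TuD-miR-122 against TuD-let-7 under both of these scales. All non-target miRNAs past 2-fold became 64 and 10 (TuD-miR-122 against mock, minimum of 20 and of 1000 reads, against 42), 42, 38 and 5 (TuD-let-7 against mock, all reads, all miRNA reads and a minimum of 1000, against 15), and 65, 67 and 15 (TuD-miR-122 against TuD-let-7, the same 3 settings, against 43).

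The long share of miR-451a-5p in TuD-miR-122 was 10.5% with 1 mismatch, 10.5% with tails of at most 2 nt and 10.4% by total insert length. With 26 nt as the limit it was 2.28% in TuD-miR-122, 1.75% in TuD-let-7 and 1.85% in mock, and with 28 nt 0.0371%, 0.00755% and 0.0346% in those libraries. Tailed shares follow as TuD-miR-122, TuD-let-7 and mock. With tails of at most 2 nt they were 1.40%, 1.31% and 1.24% for miR-451a-5p, 2.9995%, 3.18% and 2.73% for miR-144-3p, 1.36% (TuD-miR-122) and 1.40% (mock) for miR-144-5p, and 38.1% (TuD-miR-122) and 46.1% (mock) for miR-486-5p. With only A or T tails counted they were 0.711%, 0.596% and 0.595% for miR-451a-5p, 2.19%, 1.98% and 1.57% for miR-144-3p, 0% in each library for miR-144-5p, and 34.4%, 32.3% and 40.0% for miR-486-5p. With matches of at least 18 nt miR-144-3p had 3.02%, 3.03% and 2.68%. With 1 mismatch miR-451a-5p had 2.42% (TuD-miR-122) and 2.47% (mock), so the higher tailed share of TuD-miR-122 was not seen under that rule, and miR-144-3p had 6.78% (TuD-let-7). Without inserts read once miR-451a-5p had 2.19% (TuD-let-7) and miR-144-5p 3.42% (mock). With starts within 2 nt the Mir144 arm ratio in TuD-miR-122 was 32.9. No paired analysis was possible because each group had 1 library. Depth limits miR-144-5p and miR-486-3p most, with 36 and 9 reads in TuD-let-7.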
